A study of Homo sapiens with 25 samples.

Results

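ISL1 and 8 related LIM homeodomain genes, ISL2, LHX2, LHX3, LHX4, LHX5, LHX6, LHX8 and LHX9, were followed through 4 stages of human embryonic stem cell differentiation with peak lists for 3 histone marks. The members were chosen by name, and all 9 were found among 20037 protein-coding genes of the RefSeq annotation (GRCh38.p14). All samples derive from H1, which is an established line of human embryonic stem cells. It was profiled undifferentiated (hESC) and at 3 steps of a directed protocol: as definitive endoderm (hDE), then anterior foregut (hAFE), then pharyngeal foregut endoderm (hPFE). No genotype, age or treatment beyond the stage is given in the labels, and all 4 stages come from this 1 line. Of 25 samples, 21 have a peak list and 4 are inputs, 1 per stage. There are 2 libraries per mark and stage, but only 1 for H3K27me3 in hAFE and for H3K4me2 in hAFE and in hPFE.

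LIM homeodomain proteins are transcription factors that carry a pair of LIM zinc-binding domains and a DNA-binding homeodomain. The LIM domains bind the adaptors LDB1 and LDB2, through which the factors form larger complexes, and LMO proteins compete for the same adaptors. The family is known for assigning identity to neurons and to cells of several organs: ISL1 in motor and sensory neurons, cardiac progenitors and pancreatic islets, ISL2 in motor neuron subtypes, and LHX3 and LHX4 in the pituitary and motor neurons. LHX2 and LHX5 act in the forebrain, LHX6 and LHX8 in forebrain interneurons and tooth mesenchyme, and LHX9 in the gonad and limb. H3K27ac marks active promoters and enhancers, H3K27me3 is laid down by Polycomb repressive complexes at silenced genes, and H3K4me2 lies at active or accessible promoters and enhancers. Genes that carry H3K4me and H3K27me3 marks together are often called bivalent.

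The stretches just upstream of 4 start sites are shown because peaks of the marks end at, flank or reach into them. Each is the 250 bases before the RefSeq start (GRCh38.p14), written 5′ to 3′ on the gene's strand, with CG dinucleotides in capitals, since CG-rich promoters are the usual sites of both Polycomb and H3K4 methylation. RefSeq promoter entries were matched for 8 of the 9 members.
ISL1 (chr5:51383198-51383447, plus strand): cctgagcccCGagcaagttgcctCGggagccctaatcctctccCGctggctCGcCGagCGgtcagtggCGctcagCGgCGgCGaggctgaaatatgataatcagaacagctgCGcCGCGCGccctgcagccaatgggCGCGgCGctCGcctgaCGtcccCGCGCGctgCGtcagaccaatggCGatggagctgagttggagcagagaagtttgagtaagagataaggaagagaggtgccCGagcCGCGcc
ISL2 (chr15:76336523-76336772, plus strand): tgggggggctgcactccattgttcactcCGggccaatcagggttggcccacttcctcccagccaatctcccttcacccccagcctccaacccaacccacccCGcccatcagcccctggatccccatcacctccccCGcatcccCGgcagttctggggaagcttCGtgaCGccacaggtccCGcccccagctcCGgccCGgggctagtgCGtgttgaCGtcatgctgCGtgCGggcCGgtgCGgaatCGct
LHX4 (chr1:180230014-180230263, plus strand): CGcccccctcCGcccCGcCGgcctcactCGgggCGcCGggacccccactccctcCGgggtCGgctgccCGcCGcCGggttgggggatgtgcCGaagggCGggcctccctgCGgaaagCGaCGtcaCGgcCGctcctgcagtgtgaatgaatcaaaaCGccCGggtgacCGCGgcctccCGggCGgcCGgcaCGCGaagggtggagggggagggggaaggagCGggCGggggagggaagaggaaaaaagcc
LHX3 (chr9:136205129-136205378, minus strand, the most upstream of 3 listed starts): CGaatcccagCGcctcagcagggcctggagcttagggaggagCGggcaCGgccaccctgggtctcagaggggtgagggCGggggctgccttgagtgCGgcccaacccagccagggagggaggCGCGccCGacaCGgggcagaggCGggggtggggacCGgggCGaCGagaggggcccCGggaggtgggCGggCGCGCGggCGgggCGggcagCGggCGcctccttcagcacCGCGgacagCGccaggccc
The ISL1 stretch holds 27 CG dinucleotides, more than 77.6% of the 22199 promoter stretches of the same length in the table. LHX4 has 30, more than 84.4%, and LHX3 has 26, more than 75.1%. ISL2 has 16, which equals the median of 16 over all promoters. The letters TAAT, the core that homeodomains bind, on either strand occur 2 times in the ISL1 stretch and not in those of ISL2, LHX4 and LHX3. Of the matched members not printed, LHX8 and LHX6 hold it 1 or 2 times at each listed start, and LHX2 and LHX9 do not. Over all promoters 40.3% hold at least 1.

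The call for a gene and stage used the windows of 1 kb around both annotated gene ends: marked if all libraries had a peak there, unmarked if none had, and mixed otherwise. It gained a mark when it went from unmarked to marked between stages and lost it in the reverse case. The number printed for a peak is its fold enrichment over input, the authors' own value for that list, which ranks peaks within 1 list. Folds of different lists are printed side by side, but a difference between them is not read as a change. With 2 libraries against 2, the smallest exact two-sided permutation p is 0.333, so no p is given. Whether the replicates come from separate cultures is not stated in the labels.

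The lists held 24871 to 111256 peaks for H3K27ac, 87357 to 116210 for H3K4me2 and 23457 to 76441 for H3K27me3. The shortest H3K27ac list was hAFE replicate 2 and the shortest H3K27me3 list was the single hAFE library. Per the labels, the submitters re-analysed earlier data for hESC H3K27ac and H3K27me3, so batch and stage cannot be told apart in contrasts of these marks with hESC. For H3K27me3, the word millipore stands in the file names of replicate 1 at hESC, hDE and hPFE, and its meaning is not given in the sources used here. H3K27ac was at all 5 pluripotency markers in hESC, and still at 3 in hDE, 2 in hAFE and 3 in hPFE (NANOG, SOX2 and LIN28A). It was at all 6 definitive endoderm markers in hDE. Of 11 anterior foregut and pharyngeal markers, 3 had the mark in hAFE (SOX2, FOXA2 and NKX2-3) and 4 in hPFE (SOX2, FOXA2, FOXE1 and SHH), while PAX9, PAX1 and HOXA3 were mixed in hPFE and TBX1 unmarked.

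The family was nearly uniform in H3K27me3 and sparse in H3K27ac, and ISL1 was the member that changed at its gene ends. H3K27me3 marked 9 of 9 members in hESC and in hDE, where 19.2% and 13.4% of all protein-coding genes were marked. In hAFE and in hPFE it marked 8 of 9, all but ISL1, against 15.5% and 12.7% of all genes. H3K27ac marked 1 member in hESC and 1 in hDE, ISL2 both times, against 42.9% and 54.0% of all genes. In hAFE it marked ISL1, with ISL2 mixed, against 34.2% of all genes. In hPFE it marked ISL1 and ISL2, with LHX4 mixed, against 50.2%. H3K4me2 marked 8 of 9 members in hESC and in hDE, all but LHX8, against 72.3% and 68.0% of all genes. LHX8 was unmarked in hESC and mixed in hDE. In hESC its H3K4me2 peaks of fold 11.1 and 9.7 began 1144 and 1134 bp inside the gene, past the window. In hAFE H3K4me2 marked 5 members (ISL1, ISL2, LHX2, LHX5 and LHX6), against 70.2% of all genes. In hPFE it marked 5 (ISL1, ISL2, LHX2, LHX4 and LHX9), against 70.1%, with 1 library for each of these stages.

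**Figure D1:**
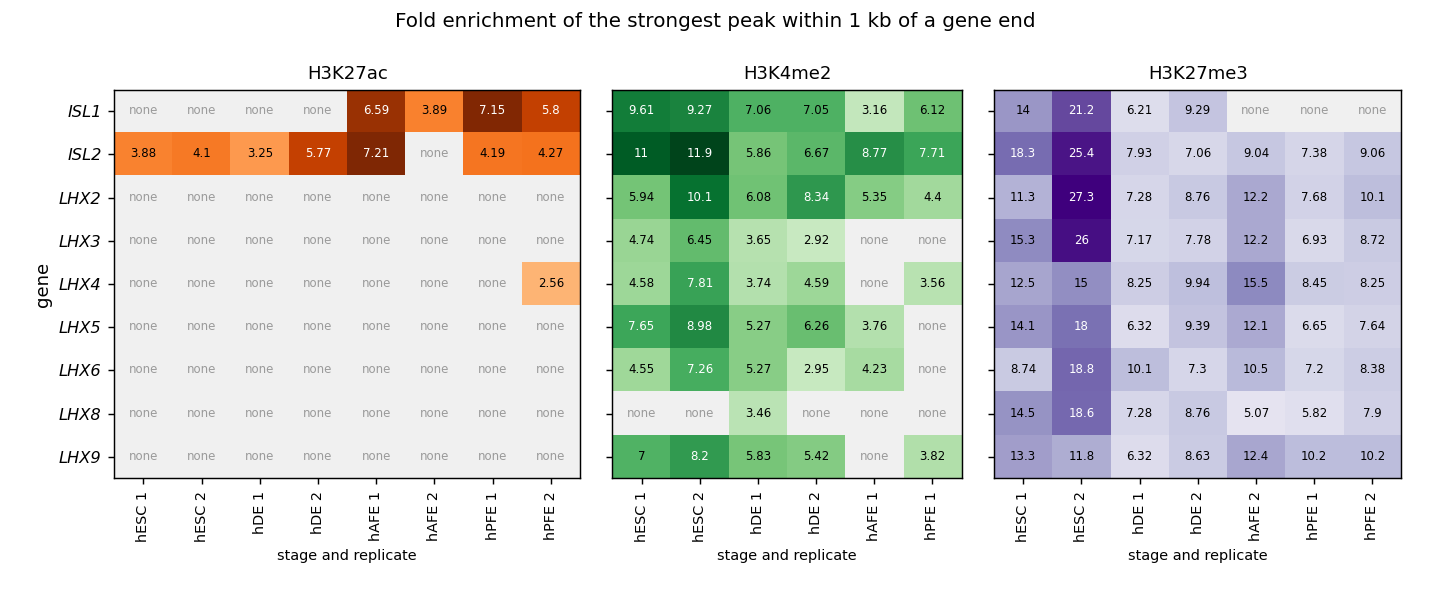
Each cell gives the authors' fold enrichment of the strongest peak within 1 kb of either end of a gene (rows) in 1 library (columns, by stage and replicate), with 1 panel and colour scale per mark; grey cells have no peak. H3K27ac appears at ISL1 in the 4 foregut libraries and at ISL2 in 7 of 8. H3K27me3 is missing only at ISL1 in the 3 foregut libraries. Colours rank genes within a column and were not compared between columns.

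Between stages, only ISL1 met the rule for a gain or loss of H3K27ac or H3K27me3. ISL1 was 1 of 8 members that could gain H3K27ac from hDE to hAFE and the only one that did, where 1.16% of all genes that could gain the mark did so. From hESC to hPFE it was again 1 of 8, against 11.4% of genes. No member gained H3K27ac from hESC to hDE or from hAFE to hPFE, where 14.6% and 7.71% of genes did. None lost it in any of the 4 contrasts, in which ISL2 or ISL1 was at most the 1 member that could: the background shares were 2.76% from hESC to hDE, 12.5% from hDE to hAFE, 0.539% from hAFE to hPFE and 3.81% from hESC to hPFE. Of the 9 members that could lose H3K27me3, only ISL1 did so from hDE to hPFE, against 16.3% of genes. From hESC to hPFE it was again only ISL1 of 9, against 32.4%. As a share of the members that could change, the H3K27ac gain from hESC to hPFE and both H3K27me3 losses were near or below the background, and the gain from hDE to hAFE was above it. From hESC to hDE no member lost H3K27me3, where 22.2% of marked genes did. Because all 9 members already carried H3K27me3, none could gain it, and the shares over other genes were 0.868% from hESC to hDE, 2.05% from hDE to hPFE and 1.55% from hESC to hPFE. H3K4me2 was neither gained by LHX8 nor lost by the other 8 from hESC to hDE, against 1.87% and 2.82% of genes.

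ISL1 lies at chr5:51383448-51394730 on the plus strand, with no other protein-coding gene within 100 kb and the long non-coding gene ISL1-DT beside its start. In hESC and hDE the 4 H3K27ac lists had no peak at its ends or in its body. The strongest H3K27ac peak at a gene end had a fold enrichment of 6.59 and 3.89 in hAFE replicates 1 and 2 and of 7.15 and 5.80 in hPFE replicates 1 and 2. H3K27ac peaks covered 31.1% and 7.24% of the body in hAFE and 40.7% and 17.5% in hPFE. All 4 foregut libraries therefore stood apart from the 4 earlier ones at ISL1, with no overlap. How large a share of all genes showed this separation was not computed. The gain from hDE to hAFE and that from hESC to hPFE held for ISL1 in 12 of 12 other settings each. Those that leave 1 library out could not change a call on which all libraries of a stage agree, so they add nothing to this count.

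H3K27me3 at ISL1 followed the opposite course, and its cover was already smaller in hDE. It covered 89.8% and 96.9% of the body in hESC replicates 1 and 2, 48.6% and 36.2% in hDE, and 0% in the hAFE library and both hPFE libraries. The strongest peaks at a gene end had folds of 14.0 and 21.2 in hESC and 6.21 and 9.29 in hDE. Within their own lists these were above the values of 94.8% and 95.5% of genes with an end peak in hESC, and of 76.5% and 88.7% in hDE. In hESC the lists reached 23.6 and 25.1 kb of H3K27me3 within 100 kb of the gene, in hDE 17.6 and 13.9 kb, in hAFE 0.178 kb and in hPFE 0.641 and 0.390 kb. Near the start, hDE replicate 1 kept a 206 bp peak at positions -1119 to -914 relative to the start and a broader one from 883 bp downstream, and hDE replicate 2 a 130 bp peak from 621 bp downstream. The stronger hDE peaks, with folds of 6.21 (chr5:51393921-51397955) and 9.29 (chr5:51395102-51397455), lay at the other end of the gene. H3K27me3 therefore covered less of the gene in hDE, a stage at which H3K27ac was not called. ISL2, LHX3, LHX5 and LHX9 also had lower cover in both hDE lists than in both hESC lists. LHX4 had higher cover, and at LHX2, LHX6 and LHX8 the values of the stages overlapped. The share of all genes with lower cover in hDE was not computed. Among 3228 genes with H3K27me3 in the body in all 4 hESC and hDE lists, 4.18% had none in the 3 foregut lists, and ISL1 was the 1 member of 9. The 2 hPFE lists held 76441 and 66283 peaks over 22.9 and 22.2 Mb, and the hESC lists 27958 and 55027 over 19.5 and 31.8 Mb. The hDE lists held 28200 and 65995 over 16.5 and 20.3 Mb, and the single hAFE list 23457 over 15.7 Mb. The part of list length in the result was not tested.

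H3K4me2 was present at the ISL1 gene ends in all 6 libraries, with a fold of 9.61 and 9.27 in hESC, 7.06 and 7.05 in hDE, 3.16 in hAFE and 6.12 in hPFE. The hAFE peak was weak, with a −log10 p of 3.70, and ISL1 lost its hAFE H3K4me2 call when peaks needed a −log10 p of 5 or a −log10 q of 2. Body cover was 46.7% and 50.6% in hESC, 33.6% and 29.2% in hDE, 62.1% in hAFE and 64.5% in hPFE. In the last pair of stages more of the gene thus lay under H3K4me2 peaks than in any earlier library.

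**Figure D2:**
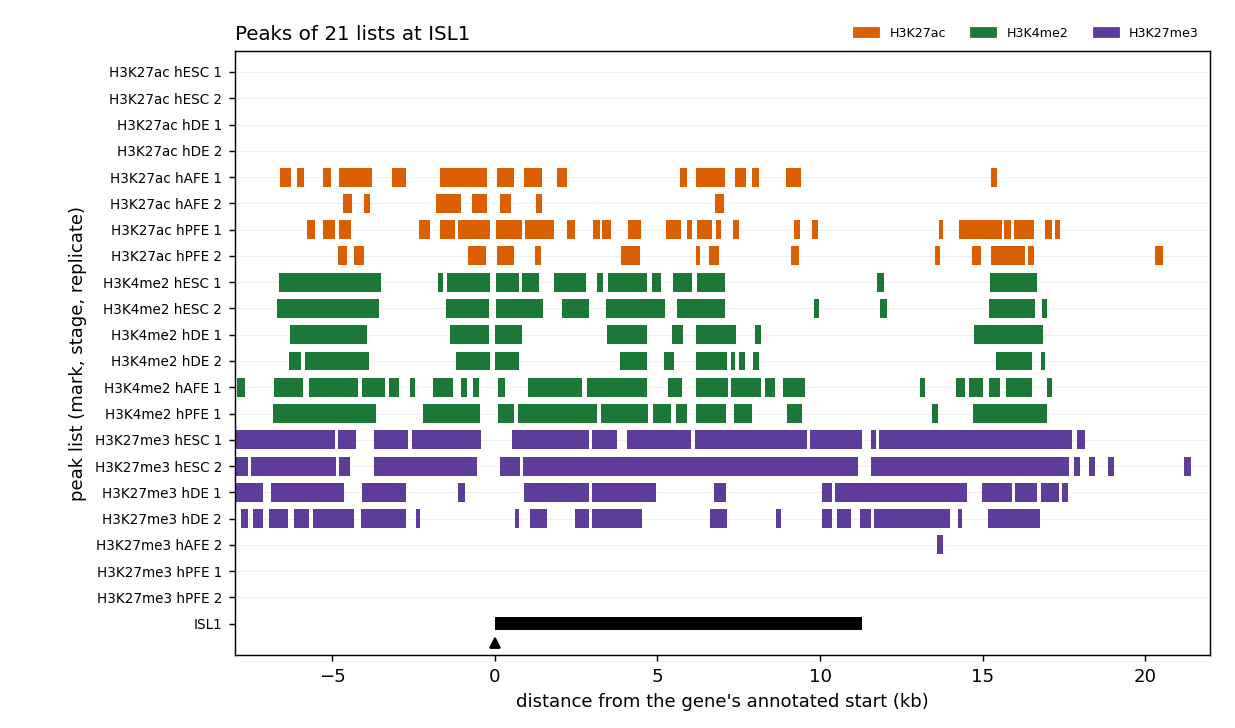
Bars are merged peaks of each library (rows, by mark, stage and replicate) at ISL1, against the distance from the gene's annotated start in kb; the black bar is the gene and the triangle its start. H3K27me3 spans the gene in hESC, is broken up in hDE and has no peak on the gene in hAFE and hPFE, where H3K27ac peaks appear, 8 of 10 shared hPFE regions of the locus at sites with H3K4me2 in hESC.

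The H3K27ac and H3K4me2 peaks at ISL1 flanked the start site and left the last bases of the printed stretch free. In the 4 H3K27ac lists the upstream peak ended 162 to 261 bp before the start and the next began 22 to 152 bp after it. In the 6 H3K4me2 lists these distances were 144 to 474 bp and 5 to 106 bp. Of the 250 printed bases, H3K27ac peaks covered 89 in hPFE replicate 1, 13 in hAFE replicate 1 and 0 in the other 6 lists. H3K27me3 peaks covered none of them in any of the 7 lists. A gap over the start was thus common to all 10 lists of active marks with peaks there, at a CG-rich sequence.

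Joining the H3K27ac peaks of all 8 libraries gave 41 regions within 100 kb of ISL1. A region was present at a stage when every library of the stage had a peak in it, which held for 0 regions in hESC and hDE, 5 in hAFE and 10 in hPFE. All 10 hPFE regions and all 5 hAFE regions had no peak in the hESC and hDE lists, against 32.5% of 29754 hPFE regions and 17.7% of 15073 hAFE regions of the genome. The 5 hAFE regions were all among the 10 of hPFE. They lay upstream (from position -4827 relative to the start, chr5:51378621-51379656, beside ISL1-DT), at the promoter (chr5:51381648-51383286), just after the start (chr5:51383470-51384294 and chr5:51384352-51385271) and in the body (chr5:51389631-51390539). In the promoter region the strongest peak had a fold of 6.59, 4.35, 7.15 and 5.80 in hAFE replicates 1 and 2 and hPFE replicates 1 and 2. Counting single libraries, hAFE held 8 without replicate 1 and 16 without replicate 2, and hPFE held 21 and 27. With a −log10 p of at least 5 the counts were 2 in hAFE and 5 in hPFE.

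The other 5 hPFE regions lay in the body and downstream. Those at chr5:51387336-51387931 and chr5:51392394-51392866 are in the gene. The widest of all, chr5:51397712-51400036, begins 14264 bp after the start, past the 3′ end of the gene, and had folds of 5.76 and 4.38 in hPFE, 4.38 in hAFE replicate 1 and no peak in hAFE replicate 2. A 265 bp region at chr5:51396979-51397243 is next to it. The most distant, chr5:51464653-51465649, begins 81205 bp after the start, with folds of 3.58 and 5.11 in hPFE and 3.81 in hAFE replicate 1. Of the 10 regions, 2 were upstream of the gene, 5 in it or at its start, and 3 downstream. The nearest gene of a region cannot be taken as its target from these lists.

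Most of these regions carried H3K27me3 and H3K4me2 at the earlier stages, at which they had no H3K27ac peak. H3K27me3 overlapped 9 of the 10 in both hESC libraries and 6 in both hDE libraries, against 2.90% and 1.43% of the 9667 regions of the genome that were acetylated in hPFE and not in hESC or hDE. H3K4me2 overlapped 8 of the 10 in hESC and 7 in hDE, against 10.1% and 6.22%. The region 81205 bp downstream was the 1 without H3K27me3 in hESC, and it had H3K4me2 in hESC and hDE. Neighbouring regions can share 1 broad H3K27me3 peak, so they are not independent of each other. No hPFE list had H3K27me3 on any of the 10, and the hAFE list had it on 1, chr5:51396979-51397243.

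ISL2, the closest relative of ISL1, lies at chr15:76336773-76342475 on the plus strand. At every stage it had H3K27ac upstream in at least 1 library, and H3K27me3 both over the gene and in shorter peaks upstream. An H3K27ac peak within 1 kb upstream of the start was found in 7 of 8 lists. Its fold was 3.88 and 4.10 in hESC, 3.25 and 5.77 in hDE, 7.21 in hAFE replicate 1 and 4.19 and 4.27 in hPFE, and hAFE replicate 2, the shortest list, had none. All these peaks fell in the region chr15:76335359-76336503, which ends before the printed 250 bases, and no H3K27ac peak lay in the gene body in any list. H3K27me3 covered 99.4% to 100% of the body in hESC, 92.5% to 93.3% in hDE, 95.1% in hAFE and 91.8% to 100% in hPFE. Shorter H3K27me3 peaks also lay within the upstream H3K27ac region at every stage. Examples are chr15:76336048-76336204 in hESC replicate 2, with a fold of 3.98, and chr15:76335904-76336173 in hAFE, with 3.69. H3K4me2 covered 63.2% and 79.0% of the body in hESC, 43.2% and 52.6% in hDE, 40.5% in hAFE and 39.2% in hPFE.

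The H3K27ac calls of ISL2 depended on the settings. With a 500 bp window or a 200 bp overlap ISL2 was no longer marked in hESC or in hPFE. With lists cut to equal length it was no longer marked in hDE or hPFE, and with a −log10 p of at least 5 no longer in hDE. Without hAFE replicate 2 it was marked in hAFE, and without hAFE replicate 1 it lost the mark from hDE to hAFE and gained it from hAFE to hPFE. H3K27ac and H3K27me3 were called together at ISL2 in hESC, hDE and hPFE, and at no other member, against 2.78%, 2.17% and 1.21% of all genes. In hAFE no member had both, against 0.804%. Both marks on the same chromosomes and different marks in different cells cannot be told apart in lists from bulk cells.

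LHX4 ran the other way from ISL1: it had H3K27ac inside the gene in hESC that was not called later, while H3K27me3 reached further into the gene. The gene is annotated at chr1:180228375-180278984 on the plus strand, and its listed start site, at 180230264, is 1889 bp inside that interval. The hESC lists held 8 and 11 H3K27ac peaks in the body, covering 8.12% and 6.89% of it. Body peaks numbered 0 in both hDE lists, both hAFE lists and hPFE replicate 1, and 1 in hPFE replicate 2. Of 34 H3K27ac regions within 100 kb, 4 were present in hESC and absent from all 6 later lists, and these were all the hESC regions of the locus. In the genome 29.1% of 24385 hESC regions were absent at every later stage.

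The largest of the 4, chr1:180238438-180240861, had folds of 8.29 and 4.36 in hESC replicates 1 and 2. Beside it, chr1:180237755-180238292 had folds of 4.33 and 3.47. Another region, chr1:180229550-180229863, lies within 1 kb upstream of the listed start, with folds of 3.88 and 2.61, and the last, chr1:180254456-180254742, had 2.94 and 3.17. H3K27me3 overlapped 0 of the 4 in both hESC libraries, 2 in both hDE libraries and 3 in both hPFE libraries. The shares over the 7092 regions of the genome with the same H3K27ac course were 0.0141%, 0.860% and 1.66%. In hESC 1 of the 4, chr1:180237755-180238292, overlapped an H3K27me3 peak of fold 3.14 in replicate 2 alone. In hDE 1 further region overlapped H3K27me3 in a single library. The region chr1:180238438-180240861 had no H3K27me3 peak in either hESC list and 1 or more in all 5 later ones. It also had H3K4me2 in both hESC lists and in none of the 4 later H3K4me2 lists.

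H3K27me3 covered 12.9% and 13.9% of the LHX4 body in hESC, 20.9% and 20.5% in hDE, 23.6% in hAFE and 26.3% and 26.4% in hPFE. LHX4 was the 1 member whose cover was higher in all 5 later lists than in both hESC lists, against 2.27% of 4672 genes. H3K4me2 cover went from 25.6% and 23.3% in hESC to 9.37% and 9.14% in hDE, 6.99% in hAFE and 4.78% in hPFE. The gene-end call did not see the H3K27ac change, since the annotated end and the listed start differ. With 1 kb either side of the listed start sites, a setting added after the data were seen, LHX4 was marked with H3K27ac in hESC and lost it both from hESC to hDE and from hESC to hPFE. The hESC H3K27ac and H3K27me3 libraries are those from the earlier deposit, and the H3K4me2 libraries are not.

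**Figure D3:**
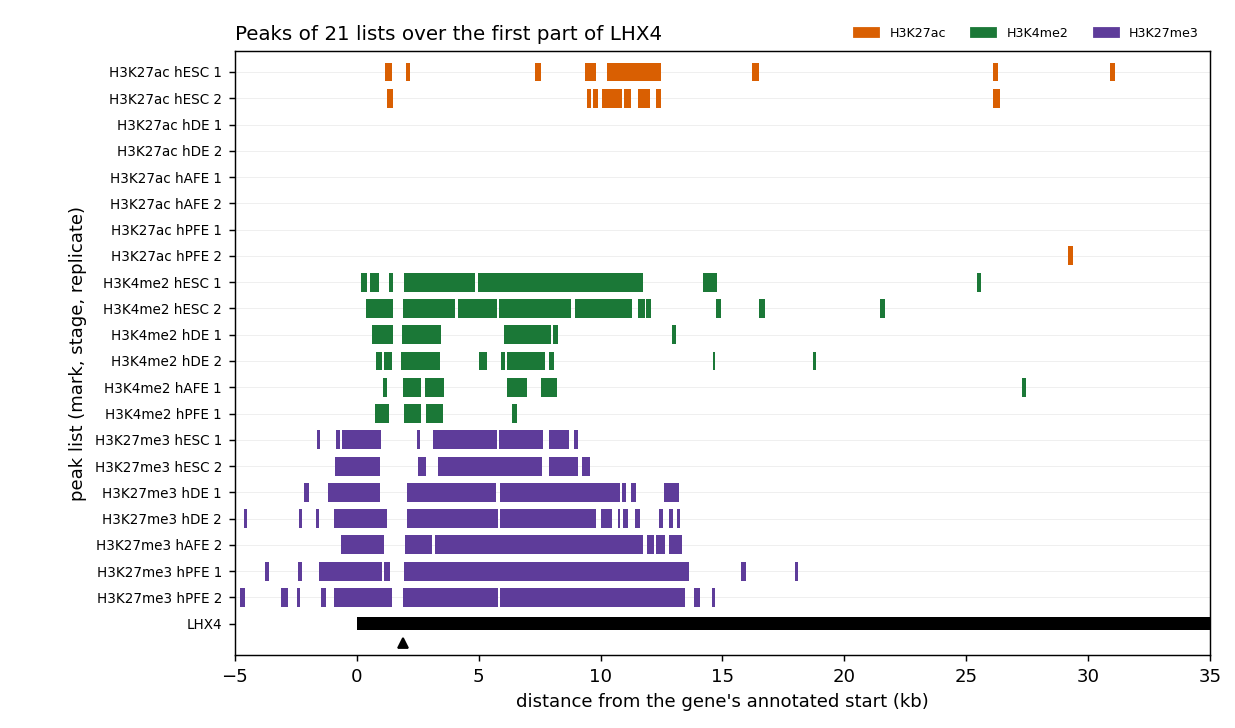
Merged peaks of each library (rows) over the first 35 kb of LHX4, against the distance from the annotated start in kb; the black bar is the gene and the triangle the start site listed by RefSeq. H3K27ac peaks between 9 and 13 kb appear in the hESC lists alone, and H3K27me3 extends over the same stretch in the hDE, hAFE and hPFE lists.

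LHX3, LHX5 and LHX2 carried H3K27me3 at every stage and had no H3K27ac peak at an end or in the body in any of 8 lists. LHX3 (chr9:136196250-136205128, minus strand), a pituitary and motor neuron factor, had 87.9% to 98.0% of its body under H3K27me3 over the 7 lists. In the printed 250 bases of LHX3, H3K4me2 peaks covered 73 and 143 in hESC and 0 in the 4 later lists, while H3K27me3 peaks covered 57 and 121 in hESC, 5 and 99 in hDE, 86 in hAFE and 0 and 19 in hPFE. LHX5 (chr12:113462033-113471871) had 90.8% to 99.0%. LHX2 (chr9:124011768-124033301, plus strand), a factor of forebrain and eye, had 45.4% and 54.5% in hESC and 56.1% and 49.4% in hDE. It had 55.4% in hAFE and 63.3% and 69.8% in hPFE, so both hPFE lists lay above the other 5. These 2 lists also held the most H3K27me3 peaks, 76441 and 66283, and the share of all genes with this order was not computed.

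The same held at the gene ends of LHX6, LHX8 and LHX9, with single weak H3K27ac peaks in 2 of the bodies. LHX6 (chr9:122202582-122228957, minus strand) had 59.7% to 64.2% of its body under H3K27me3 and no H3K27ac. LHX8 (chr1:75128434-75199454, plus strand) had 12.7% to 16.9%, in a domain at its start, with 2 body H3K27ac peaks in hESC replicate 2 and 1 in hAFE replicate 1, of folds 2.80, 3.50 and 3.12. LHX9 (chr1:197912464-197935478, plus strand) had 37.4% and 40.6% in hDE and 44.2% to 50.8% in the other 5 lists, with 1 body H3K27ac peak in hPFE replicate 2, of fold 2.67. None of these peaks was shared by the libraries of a stage. In every list each of the 8 members other than ISL1 had a larger share of its body under H3K27me3 than at least 93.3% of protein-coding genes.

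**Figure D4:**
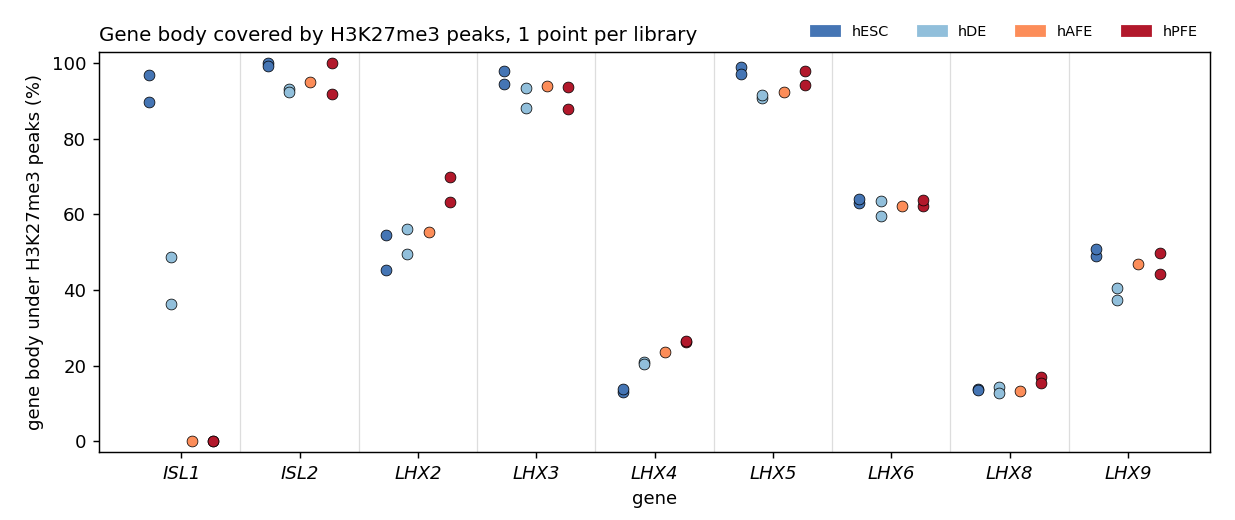
The share of each gene body under H3K27me3 peaks (percent, vertical axis) is drawn for the 9 members, 1 point per library and coloured by stage. ISL1 goes from 89.8% and 96.9% in hESC to 0% in hAFE and hPFE, LHX4 has 12.9% and 13.9% in hESC and 26.3% and 26.4% in hPFE, and LHX2 has 45.4% to 69.8% over all 7 lists.

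H3K4me2 body cover at ISL1 differed in direction from the other 8 members in the foregut lists. Body cover was lower in both hDE lists than in both hESC lists at 9 of 9 members, against 55.5% of all genes with cover in hESC. The hESC H3K4me2 lists also covered more of the genome, 50.7 and 51.0 Mb, than the hDE lists at 37.3 and 34.6 Mb. From hDE to the foregut the lists were of like extent, 35.3 Mb in hAFE and 36.1 Mb in hPFE. There, 8 of 9 members had lower cover in the hAFE and hPFE lists than in both hDE lists, against 25.1% of genes, and ISL1 was the 1 member with higher cover, against 21.6%. These last stages have 1 library each, so their spread is not known.

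The extent of this difference varied among the members. LHX3 had 31.6% and 45.1% of its body under H3K4me2 in hESC, 6.22% and 7.87% in hDE, 0% in hAFE and 2.03% in hPFE. LHX5 had 54.0% and 72.4%, 36.0% and 37.2%, 20.0% and 7.71% in the same order, and LHX2 26.4% and 37.6%, 6.19% and 11.3%, 2.32% and 1.93%. LHX6 went from 25.0% and 35.7% in hESC to 4.84% in hAFE and 6.01% in hPFE, and LHX9 from 34.1% and 30.5% to 5.12% and 5.87%. LHX8 had the lowest values in hESC, 10.8% and 10.9%, and 4.64% in hAFE and 3.47% in hPFE. ISL2 kept 40.5% and 39.2% in the foregut lists. Within the hPFE list, ISL1 had more cover than 99.1% of genes and ISL2 more than 97.5%. LHX5 had more than 80.2%, LHX3 more than 49.1% and LHX2 more than 47.9%.

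H3K4me2 and H3K27me3 together were called at the gene ends of 8 of 9 members in hESC and in hDE, against 18.5% and 11.6% of genes. LHX8 was left out, although in hESC both marks had peaks in its body beyond the start window. In hAFE 4 members had both, ISL2, LHX2, LHX5 and LHX6, against 13.2%. In hPFE 4 had both, ISL2, LHX2, LHX4 and LHX9, against 10.3%. For H3K4me2 alone, the 5 members marked in hAFE and the 5 in hPFE became 8 and 9 when the whole gene was counted, and 3 and 3 with a −log10 p of at least 5.

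**Figure D5:**
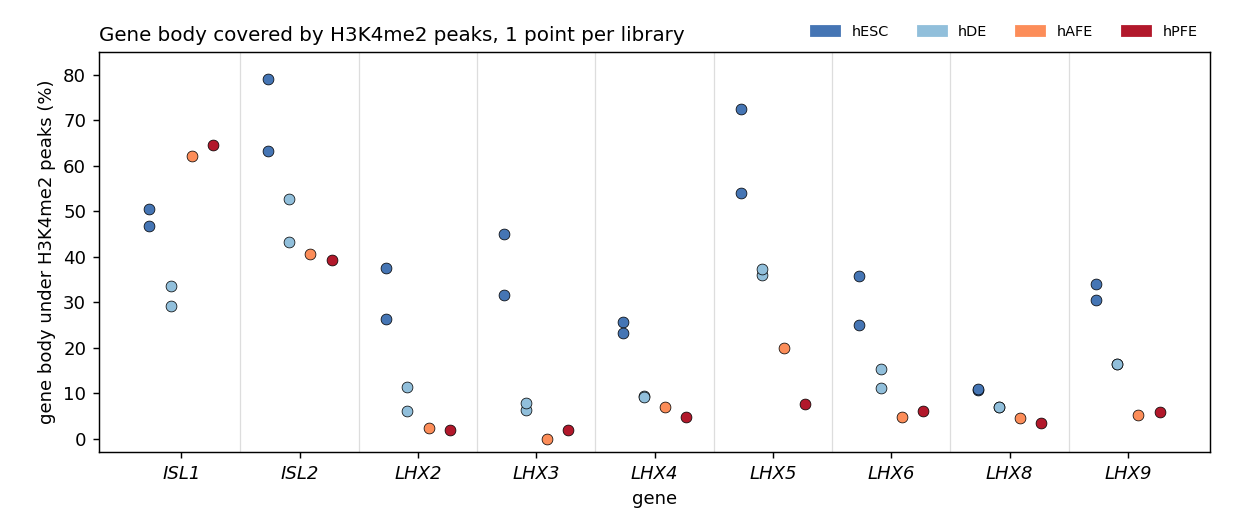
The share of each gene body under H3K4me2 peaks (percent, vertical axis) is drawn for the 9 members, 1 point per library and coloured by stage. The hAFE and hPFE points lie above the earlier ones at ISL1 and below the hDE points at the other 8 members.

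Distal H3K27ac regions near the other members lay both at neighbouring genes and where no gene was within 1 kb. Of 31 regions within 100 kb of ISL2, 6 were present in hDE, of which 3 lay in or beside ETFA and 2 in SCAPER. Near LHX6 the 1 region present at all stages, chr9:122263992-122265939, is at RBM18 and MRRF. LHX9 had 6 regions in hDE: 1 at C1orf53 (chr1:197902105-197902892), also present in hPFE, and 5 between 111747 and 119651 bp past the left end of the gene, from chr1:198024211-198024974 to chr1:198032115-198033022, with no gene within 1 kb. Those 5 were absent from both libraries of each other stage. LHX3 had 7 regions in hPFE, of which chr9:136170547-136171672, with no gene within 1 kb, had a fold of 9.03 in hPFE replicate 2. No H3K27me3 peak lay on any of these distal regions, apart from 1 hESC library at the C1orf53 region.

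Among 13 other LIM genes and cofactors, the family members LHX1 and LMX1B had an earlier window than ISL1. LHX1, a factor of the primitive streak and kidney, and LMX1B, a factor of limb and midbrain, were the 2 of 7 that gained H3K27ac from hESC to hDE, against 14.6% of all genes, and the same 2 of 6 lost it from hDE to hAFE, against 12.5%. At LHX1 the strongest peak had a fold of 9.90 and 14.2 in the 2 hDE lists, H3K27ac covered 95.5% and 95.6% of the body, and no list of another stage had a peak at its ends. H3K27me3 covered 96.7% and 100% of LHX1 in hESC, 0% in both hDE lists, 86.8% in hAFE and 98.1% and 95.5% in hPFE. LMX1B kept H3K27me3 at a gene end at all stages, with 9.24% and 14.7% of the body covered in hDE and 22.3% to 38.3% elsewhere. None of the 3 that could gain H3K27ac from hDE to hAFE did so. The adaptor LDB1, the LIM-only factor LMO4, the LDB partner SSBP2 and the ubiquitin ligase RLIM had H3K27ac at a gene end in all 8 lists, and LDB2, the other adaptor, was marked in hESC, mixed in hDE and hAFE and unmarked in hPFE.

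Over all protein-coding genes, 4 had the same state as ISL1, a peak or none at the gene ends, in 21 of 21 libraries, and 16 had it in at least 20. Ordered by Spearman's rho of the base pairs covered at the gene ends over the 21 libraries, these were ASXL3 (rho 0.87), PTCH1 (0.82), EFEMP1 (0.78) and TGFB2 (0.72), followed by ZBTB16 (0.91, 20 of 21 libraries). The 21 libraries include all 3 marks and share stages and batches, so rho is a description. PTCH1 is the Hedgehog receptor, TGFB2 a TGF-β ligand, EFEMP1 an extracellular matrix glycoprotein and ZBTB16 a zinc-finger repressor. At PTCH1 the H3K27ac folds were 5.06 and 5.35 in hAFE and 8.28 and 7.98 in hPFE, and the H3K27me3 folds 5.89 and 12.0 in hESC and 5.67 and 5.90 in hDE. ZBTB16 differed in 1 library, a peak of fold 3.17 in hPFE H3K27me3 replicate 2.

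ISL1 is also a marker of other cell types, and their lists were read beside it. Of 7 motor and sensory neuron genes, 0 had H3K27ac in hESC, hAFE and hPFE and 1 (MNX1) in hDE, and all 7 had H3K27me3 at every stage. Of 8 heart field genes, 1 (TNNT2) had H3K27ac at every stage, NKX2-5 was mixed in hAFE and marked in hPFE, HAND2 was mixed in hPFE, and HAND1, MEF2C, TBX5, MYH6 and ACTN2 were unmarked at all 4. Of the 8, 5 had H3K27me3 at every stage (NKX2-5, HAND1, HAND2, TBX5 and ACTN2), and MEF2C, TNNT2 and MYH6 were unmarked for it throughout. Of 6 limb and tooth genes, 0 had H3K27ac and 6 had H3K27me3 at every stage. Of 3 neural crest genes 0 had H3K27ac in hAFE or hPFE. The part of heart field cells in the ISL1 result was not tested.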

How the data were processed

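Chromatin immunoprecipitation with sequencing gave 21 peak lists used here, 1 per library. Per the deposited file names, the authors called peaks for each library separately against the input of its stage, at p = 0.01 and with the number of peaks capped at 500 K. Coordinates are on hg38, a build taken from the submitters' processing notes, and the names of the aligner and peak caller were not given in the sources used here. The authors' deposited columns hold a whole-number score, then the fold enrichment as a ratio over input, the −log10 p and, last, the −log10 q of a peak within its list. Scores were not used.

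Overlapping peaks of a library were merged on chromosomes 1 to 22, X and Y, and at least 1 bp had to overlap a window. Gene positions came from RefSeq (GRCh38.p14), whose gene table gives no strand, so windows of 1 kb around both gene ends were used. Peaks were listed out to 100 kb. No read counts were used, so depth is unknown and a missing peak may be a missed one. The longest H3K27ac list held 111256 peaks and the shortest 24871, and list length limits what a missing peak can show. Calls were checked on simulated peaks. Named genes were all 9 members, the listed LIM genes whose H3K27ac changed between consecutive stages, the 5 genes most like ISL1, and neighbours holding a peak. The members, gene lists and marker lists were chosen with earlier results of these data known. Python 3.11.15 and numpy 2.4.6 were used. Alternatives were stricter peaks, equal list lengths, other windows and overlaps, and each library left out.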

Additional observations from a re-analysis of the deposited data

How the results depend on the processing

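The 32 counts were recomputed under 330 combinations of count and setting, and 36 moved by more than 1.5 times or to or from 0. ISL1 kept its H3K27ac gains and H3K27me3 losses in every setting run (12 of 12 each). For the settings with 1 library left out this was fixed in advance, since the libraries of each stage agreed. Members with H3K27ac in hESC numbered 0 with a 500 bp window or a 200 bp overlap, and 2 with a 2.5 kb window, the whole gene or listed start sites. In hDE they numbered 0 with a −log10 p of 5 or equal list lengths, and in hPFE 1 with equal lengths, a 500 bp window or a 200 bp overlap. Members with H3K4me2 in hDE numbered 5 with a 200 bp overlap. With a −log10 p of 5 they were 3 in hAFE and 3 in hPFE, and over the whole gene 8 and 9. Losses of H3K27ac from hESC to hDE were 1 with a 2.5 kb window, the whole gene or listed start sites, and from hESC to hPFE 1 with listed start sites, each time LHX4. Losses of H3K4me2 from hESC to hDE were 1 with a −log10 p of 5 (LHX3) or a 500 bp window (LHX4). H3K27ac regions near ISL1 in hAFE were 2 with a −log10 p of 5 or a −log10 q of 2, and in hPFE 5 with a −log10 p of 5 and 3 with equal lengths.

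With 1 library left out, members with H3K27ac in hAFE were 1 to 2, losses of H3K27ac from hDE to hAFE 0 to 1, gains from hAFE to hPFE 0 to 1, gains from hESC to hPFE 1 to 2 and gains of H3K4me2 from hESC to hDE 0 to 1. ISL1 regions were 0 to 1 in hESC, 8 to 16 in hAFE and 21 to 27 in hPFE; fewer libraries then had to share a region. Beyond this the cause of each change was not tested. No paired analysis was possible because the results come from no test. Depth is unknown, and single weak peaks in a short list can be missed.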
